A study of Homo sapiens with 12 samples.

Results

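The genes described here are 30 human genes of cholesterol synthesis, uptake and transport, followed in neurons after knockdown of *SMN*. They were chosen by name, as every row of the authors' 2 deposited expression tables whose gene symbol equals one of the 30. All 30 were found in both tables, among 16406 genes tested in iMNs, 19016 in i3Ns and 16093 in both. *FDFT1* has 2 identifiers in each table, so the members filled 31 rows. The deposited values are a mean normalized count over the libraries of a cell type, the log2 fold change from SCR to *SMN*-KD, its standard error (SE) and a DESeq2 adjusted p-value. A gene is called here where its adjusted p-value was under 0.01, and called a DEG where its log2 fold change also exceeded 1 in size, the thresholds of the study.

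Cells build cholesterol from acetyl-CoA. Mevalonate and isoprenoid intermediates are joined into squalene, squalene is closed into lanosterol, and lanosterol is trimmed and reduced to cholesterol. When sterol in the endoplasmic reticulum (ER) is low, SCAP carries SREBP2 to the Golgi apparatus, where cleavage frees a transcription factor that raises the genes of synthesis and uptake, and INSIG proteins hold the complex back when sterol is plentiful. When sterol is in excess, its oxidized forms activate LXR receptors, which raise the export pumps. Neurons take up much of their cholesterol from lipoproteins that astrocytes secrete and also make some of their own, and membranes of long axons need a steady supply.

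RNA-seq was done on 12 libraries, with 3 from each of 4 groups, 12 days after the start of knockdown. The iMNs were motor neurons from 1 human iPSC line that carries Td-Tomato under the HB9 promoter, the marker by which they were sorted. The i3Ns were excitatory glutamatergic neurons from H1, an established human ES cell line, with inducible expression of the transcription factor NGN2. Both the SCR and the *SMN*-KD cells received a lentiviral vector with a doxycycline-induced shRNA, either a scrambled one or one against *SMN1* and *SMN2*, so every group expressed an shRNA. Each cell type came from 1 line and 1 differentiation method, so effects of cell type, line and method cannot be told apart. The labels do not say whether replicates were separate cultures, and the p-values then measure only the spread between these samples. Values per library were not used here, so each member is given by the mean of its SCR and of its *SMN*-KD group, worked out from that mean and that fold change, and overlap between single libraries was not examined.

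The knockdown was visible in both tables, since the derived means of the 5 *SMN1* and *SMN2* identifiers added up to 1923 in SCR iMNs against 424 in *SMN*-KD iMNs, and to 1839 in SCR i3Ns against 318 in *SMN*-KD i3Ns. Markers of excitatory neurons set the cell types apart. *SLC17A7* (a vesicular glutamate transporter) had a derived SCR mean of 48.5 in iMNs and 8038 in i3Ns. The 7 motor neuron markers were all listed in both tables and made up 0.0532% of the normalized counts in SCR iMNs and 0.0657% in SCR i3Ns, and single ones went opposite ways. The derived SCR means of *MNX1* (the gene of HB9), *ISL1* and *ISL2* were 497, 1523 and 66.3 in iMNs and 2552, 15146 and 3133 in i3Ns, whereas *SLC5A7*, a choline transporter, and *PRPH*, a neurofilament protein, were higher in iMNs (10716 and 6669 against 3873 and 2530). The tables were normalized separately, so these levels were set side by side without a test. Markers moved with the knockdown. All 4 pan-neuronal markers fell in iMNs, where they summed to 301294 in SCR and 251634 in *SMN*-KD, and 3 of 4 fell in i3Ns (266055 and 223073). *TUBB3* had log2 fold changes of -0.63 in iMNs and -0.24 in i3Ns. Of the motor neuron markers, 4 fell and 2 rose in iMNs and 5 fell and 2 rose in i3Ns, where the log2 fold changes were -3.00 for *CHAT* (-1.09 in iMNs), -1.85 for *SLC5A7* (-0.79 in iMNs) and 1.85 for *PRPH* (0.25 in iMNs). Among the 4 excitatory markers in i3Ns, *SLC17A6* and *SLC17A7* fell and *NEUROD1* rose from 1270 to 6808. The 4 mesenchymal markers summed to 1864 in SCR and 3229 in *SMN*-KD iMNs, and 3 of them rose. In i3Ns they summed to 10797 in SCR and 1094 in *SMN*-KD, and all 4 fell. *LIN28A*, an RNA-binding protein of stem cells, rose in i3Ns from 1559 to 6872, while *POU5F1* and *NANOG* had derived means of at most 14.02 and 9.49. Of the 5 glial markers, *GFAP*, *AQP4* and *SOX10* were listed in neither table, and *MBP* fell in i3Ns from 1271 to 627. The part of these shifts in the results on the members was not tested, and in bulk RNA fewer cells of a type and less RNA per cell cannot be told apart.

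In iMNs most of the members fell. Of the 30 genes, 21 fell (70.0%) and 2 rose (6.67%), where 18.7% of all genes tested fell and 17.1% rose. In i3Ns the members went both ways, with 11 that fell (36.7%) against 25.7% of all genes, and 7 that rose (23.3%) against 22.8%, so the share that rose was that of the background. The median log2 fold change of the members was -0.28 in iMNs and -0.08 in i3Ns, beside 0.001 and 0.010 for all genes. Most members are strongly expressed, and strongly expressed genes were called more often. At mean normalized counts of 1000 or more, 28.7% of genes fell in iMNs, against 20 of the 26 members at that level (76.9%), and 25.0% rose, against 2 of 26. In i3Ns 35.3% fell, against 8 of 23 members (34.8%), and 35.4% rose, against 7 of 23 (30.4%), so at this level the share of members that fell in i3Ns was that of the background. Changes were mostly small. Only *ACAT2* was a DEG in iMNs, where the thresholds took in 2.37% of all genes as downregulated and 0.969% as upregulated. In i3Ns *ACAT2*, *SC5D* and *APOE* were downregulated DEGs and *ABCA1* was an upregulated one, where the background was 9.53% and 4.23%.

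**Figure D1:**
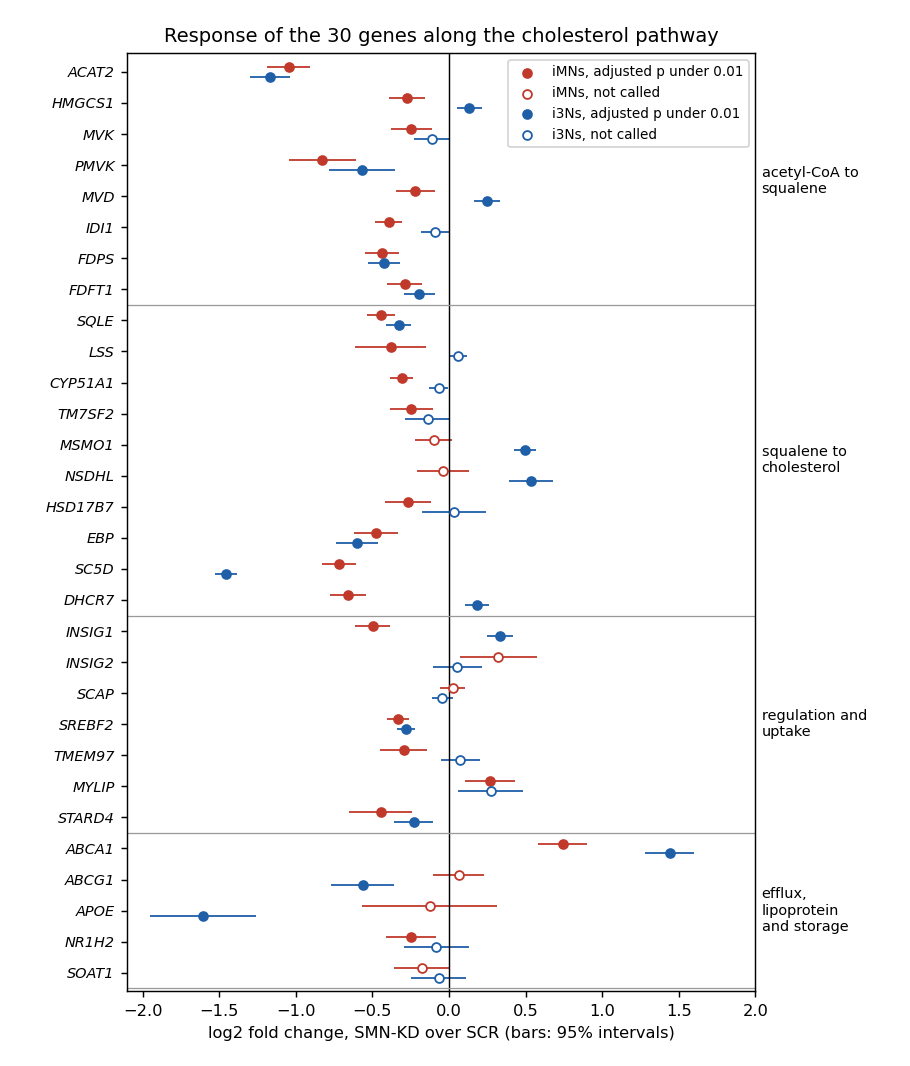
Log2 fold change from SCR to *SMN*-KD (x axis) for the 30 genes in the order of the pathway (y axis), in iMNs (red) and i3Ns (blue). Bars are 95% intervals from the deposited standard errors, filled points passed the adjusted p threshold and open points did not. All 18 enzymes lie left of 0 in iMNs, from *NSDHL* at -0.04 to *ACAT2* at -1.05, while in i3Ns 7 of them lie to the right.

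The 18 enzymes carried most of the fall in iMNs. Of these, 16 fell (88.9%, against 18.7% of all genes) and none rose (against 17.1%). The other 2, *MSMO1* and *NSDHL*, also had negative fold changes. In i3Ns, 7 of the 18 fell (38.9%), 5 rose (27.8%) and 6 were not called. Of all genes 25.7% fell and 22.8% rose there. At mean normalized counts of 1000 or more these shares were 35.3% and 35.4%, so the share of enzymes that fell was near that of strongly expressed genes. The median log2 fold change of the enzymes was -0.34 in iMNs and -0.10 in i3Ns. The steps are taken in the order in which the pathway runs.

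*ACAT2* encodes the cytosolic thiolase that joins acetyl-CoA units at the entry of the pathway. Its derived mean was 7851 in SCR and 3798 in *SMN*-KD iMNs, and 8363 in SCR and 3722 in *SMN*-KD i3Ns. Its mRNA was thus at similar levels in both cell types before and after knockdown, and in iMNs its fold change was the largest fall of any member. The fold change was -1.05 (SE 0.072) in iMNs and -1.17 (SE 0.066) in i3Ns on the log2 scale, and the difference of -0.12 had a 95% interval from -0.31 to 0.07. The study reported that ACAT2 protein did not change despite the lower mRNA, in i3Ns and in iMNs from healthy donors. Its protein data in i3Ns came from a mild knockdown, with less doxycycline than the study's standard dose. The study also found *ACAT2* downregulated in an earlier dataset of motor neurons from a mouse model of spinal muscular atrophy. The next enzyme parted the cell types. *HMGCS1*, the HMG-CoA synthase of the mevalonate pathway, had the highest level per kilobase of all members in SCR iMNs. It fell there from 38288 to 31633, a change of -17.4% (log2 fold change -0.28, SE 0.060, adjusted p = 1.16e-05). In i3Ns it rose from 26618 to 29184, a change of 9.64% (log2 fold change 0.13, SE 0.041, adjusted p = 0.00266).

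The kinases and the decarboxylase that turn mevalonate into an activated isoprenoid showed both patterns. *MVK*, mevalonate kinase, fell in iMNs by 0.25 on the log2 scale and was not called in i3Ns, with a fold change of -0.11 and an adjusted p of 0.111. *PMVK*, phosphomevalonate kinase, fell in both, from 717 to 404 in iMNs and from 524 to 354 in i3Ns. With log2 fold changes of -0.83 (SE 0.11) and -0.57 (SE 0.11), it came next to *ACAT2* among the falls in iMNs. *MVD*, the decarboxylase that makes isopentenyl diphosphate, moved in opposite directions. Its mean went from 10152 to 8713 in iMNs (log2 fold change -0.22, SE 0.065) and from 7826 to 9275 in i3Ns (0.25, SE 0.043).

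The enzymes that assemble squalene fell in iMNs, and *FDPS* and *FDFT1* also fell in i3Ns. *IDI1*, the isomerase of the isoprenoid building block, fell in iMNs from 8251 to 6285 and had means of 6624 and 6212 in i3Ns, where it was not called (adjusted p = 0.0847). *FDPS*, farnesyl diphosphate synthase, fell by nearly the same amount in both, with log2 fold changes of -0.44 (SE 0.056) in iMNs and -0.42 (SE 0.053) in i3Ns. *FDFT1*, squalene synthase, commits farnesyl diphosphate to sterols, and its main identifier fell by 0.29 and 0.19 on the log2 scale. The other identifier, which GENCODE 44 does not hold, had log2 fold changes of -0.26 and -0.32, and the sum of both changed by -0.28 in iMNs and -0.25 in i3Ns. Reads can be split between such identifiers, so the separate values are uncertain. In all, 8 of the 8 genes from acetyl-CoA to squalene fell in iMNs, where 18.7% of all genes did so. In i3Ns 4 fell (50%, against 25.7% of all genes) and 2 rose (25%, against 22.8%).

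Squalene epoxidase (*SQLE*), a control point of sterol synthesis, opens the second stretch. Its mean fell from 14455 to 10632 in iMNs and from 15220 to 12128 in i3Ns, a change of -26.4% and -20.3%. *LSS*, lanosterol synthase, closes the sterol rings. It fell in iMNs by 0.38 on the log2 scale, with the largest standard error of all enzymes in that table (0.12, adjusted p = 0.0014), and in i3Ns its means were 17310 in SCR and 18026 in *SMN*-KD, which was not called. *CYP51A1*, lanosterol demethylase, behaved likewise at a high level. It fell in iMNs from 22473 to 18156 (log2 fold change -0.31, SE 0.038) and had means of 22514 and 21513 in i3Ns (adjusted p = 0.0682). *TM7SF2*, a sterol reductase of the ER membrane that acts next, fell in iMNs by 0.25 and had a fold change of -0.14 in i3Ns, which was not called.

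Of the 3 enzymes that strip further methyl groups from the sterol ring after *CYP51A1*, 2 rose in i3Ns and were not called in iMNs. *MSMO1*, the methylsterol oxidase, had means of 9552 and 8913 in iMNs, a difference that was not called, and rose in i3Ns from 6541 to 9221 (log2 fold change 0.50, SE 0.036, adjusted p = 6.13e-42). *NSDHL*, the dehydrogenase that works with it, had means of 1592 and 1548 in iMNs and rose in i3Ns from 1297 to 1879 (0.53, SE 0.074). These were the largest rises among the enzymes. *HSD17B7*, the reductase that completes this reaction cycle, did not rise with them, as it fell in iMNs by 0.27 and had a fold change of 0.03 (SE 0.11) in i3Ns.

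Of the last 3 steps, *EBP* and *SC5D* fell in both cell types, *SC5D* more steeply in i3Ns, and *DHCR7* moved in opposite directions. *EBP*, the sterol isomerase, fell from 1721 to 1238 in iMNs and from 1851 to 1220 in i3Ns. *SC5D*, the desaturase that follows it, fell from 9923 to 6027 in iMNs (log2 fold change -0.72, SE 0.056) and from 10704 to 3897 in i3Ns (-1.46, SE 0.037). Its SCR means were close, and the change of -63.6% in i3Ns was the steepest fall of any enzyme. *DHCR7*, the reductase that yields cholesterol, changed direction between the cell types. It fell in iMNs from 8503 to 5389 (log2 fold change -0.66, SE 0.059, adjusted p = 6.13e-28), and in i3Ns it rose from 6613 to 7512 (0.18, SE 0.041, adjusted p = 1.93e-05). Neighbouring enzymes of the final conversion therefore moved in opposite directions in i3Ns and in the same direction in iMNs. From squalene to cholesterol, 8 of 10 genes fell (80%, against 18.7% of all genes) and none rose in iMNs. In i3Ns 3 fell (30%, against 25.7%), 3 rose (30%, against 22.8%) and 4 were not called, so these shares were near the background.

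**Figure D2:**
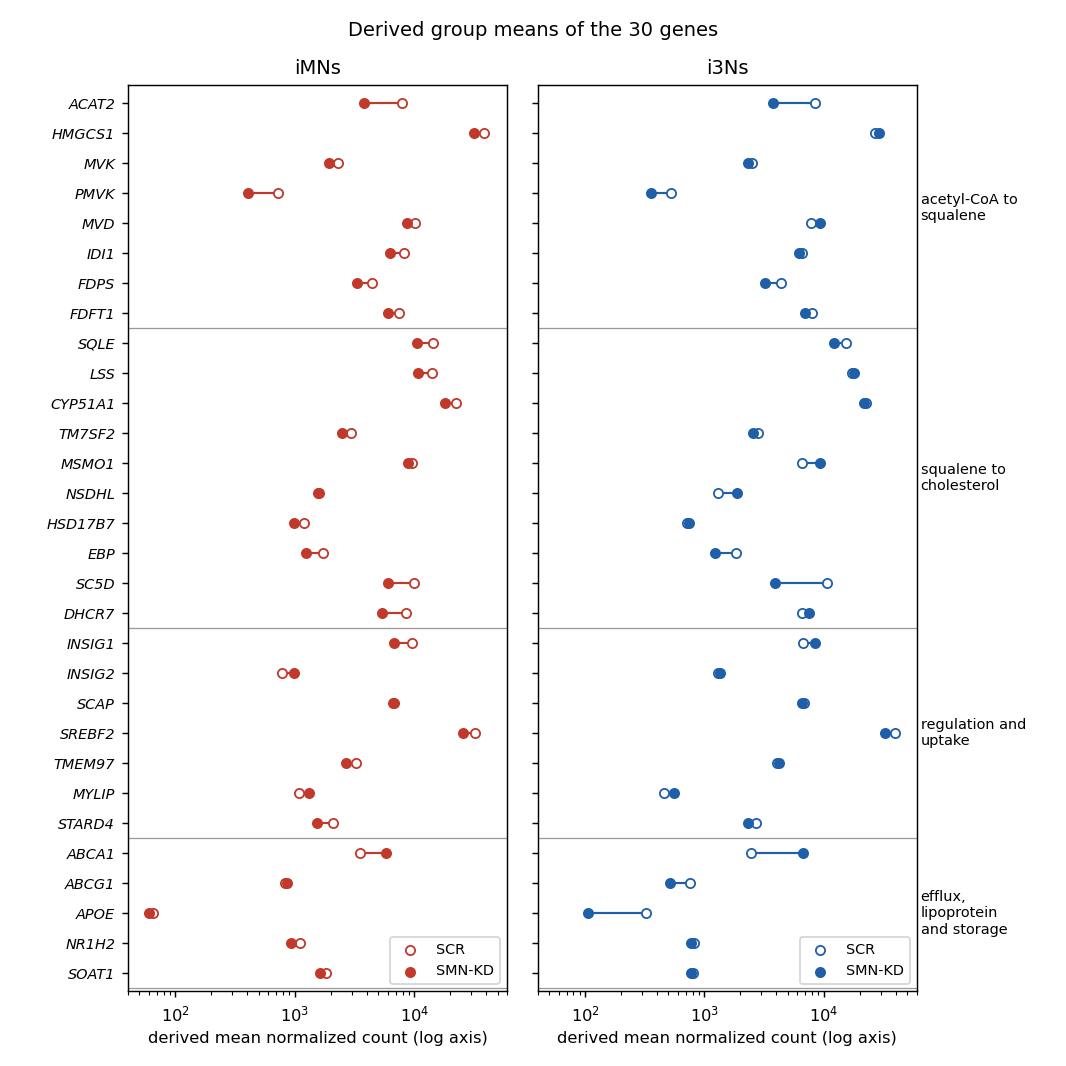
Derived mean normalized count of each gene (x axis, log scale) in SCR (open points) and *SMN*-KD (filled points), for iMNs on the left and i3Ns on the right, with a line joining the groups of 1 gene. The 2 tables were normalized separately. In iMNs nearly every filled point of the synthesis genes lies left of its open point, and in i3Ns the longest lines are those of *ACAT2*, *SC5D*, *ABCA1* and *APOE*.

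The members lie on many chromosomes. By GENCODE 44 on GRCh38, *SC5D* (ENSG00000109929) lies on the plus strand at chr11:121292681-121313410 with 5 exons, and *DHCR7* (ENSG00000172893), the enzyme after it, on the minus strand of the same chromosome at chr11:71428193-71452868 with 9 exons. *INSIG1* (ENSG00000186480) lies at chr7:155297776-155310235, *ABCA1* (ENSG00000165029) at chr9:104781006-104928155 and *APOE* (ENSG00000130203) at chr19:44905791-44909393. Expressed per kilobase of the reference transcript, so that genes can be compared, *HMGCS1* and *CYP51A1* led in SCR iMNs with 7157 and 7123 normalized counts per kilobase. *SREBF2* and *CYP51A1* led in SCR i3Ns with 7515 and 7136. Among the enzymes *PMVK* was lowest in iMNs (715 per kilobase) and *HSD17B7* in i3Ns (472 per kilobase). The export and storage genes were lower, with *NR1H2* highest (454 in iMNs and 340 in i3Ns) and *ABCA1* at 336 and 236. *APOE* was the lowest member in iMNs (55.9 per kilobase) and *SOAT1* in i3Ns (118), where *APOE* was at 277. As shares of all normalized counts, which set the separately normalized tables on a like scale without a test, the SCR level of *APOE* was 4.80 times as high in i3Ns as in iMNs. *MYLIP* and *SOAT1* were 2.46 and 2.34 times as high in iMNs, and the enzymes differed less, from 1.71 times as high in iMNs (*HSD17B7*) to 1.19 times as high in i3Ns (*LSS*).

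Among the regulators, *SREBF2*, which encodes SREBP2, fell alike in both cell types. Its means were 32090 and 25467 in iMNs and 39355 and 32429 in i3Ns, with log2 fold changes of -0.33 (SE 0.036) and -0.28 (SE 0.031). The difference was 0.05, with a 95% interval from -0.04 to 0.15. *SCAP*, the escort of SREBP2, was not called in either, with fold changes of 0.03 (SE 0.042) and -0.04 (SE 0.035). *INSIG1*, an ER anchor of SCAP and itself a known target of SREBP2, moved in opposite directions. It fell in iMNs from 9646 to 6827 (log2 fold change -0.50, SE 0.058, adjusted p = 1.74e-17) and rose in i3Ns from 6730 to 8478 (0.33, SE 0.042, adjusted p = 1.64e-14). *INSIG2*, its relative, had fold changes of 0.32 in iMNs (SE 0.13, adjusted p = 0.0144) and 0.05 in i3Ns, and neither was called.

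Uptake and movement inside the cell were covered by 3 members. *TMEM97*, a sterol-responsive membrane protein known as the sigma-2 receptor, fell in iMNs from 3271 to 2667 and had means of 4034 and 4242 in i3Ns, which was not called. *MYLIP*, a ubiquitin ligase that marks lipoprotein receptors for degradation, had nearly the same fold change in both, 0.27 (SE 0.083) in iMNs and 0.27 (SE 0.11) in i3Ns. It passed the threshold only in iMNs (adjusted p = 0.00227 against 0.0202), and the difference of 0.00 had a 95% interval from -0.26 to 0.27. *STARD4*, a carrier of cholesterol through the cytosol, fell in both, from 2080 to 1527 in iMNs and from 2704 to 2304 in i3Ns. Of the 7 genes of regulation and uptake, 4 fell (57.1%, against 18.7% of all genes) and 1 rose (14.3%, against 17.1%) in iMNs. In i3Ns 2 fell (28.6%, against 25.7%) and 1 rose (14.3%, against 22.8%).

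Among the genes of export, *ABCA1* rose in both cell types and more so in i3Ns. This pump hands cholesterol to lipid-poor apolipoproteins. Its mean rose from 3500 to 5854 in iMNs (log2 fold change 0.74, SE 0.082, adjusted p = 2.14e-19) and from 2459 to 6675 in i3Ns (1.44, SE 0.081, adjusted p = 6.16e-70). It was the only member that rose in both, and 11.0% of all genes did so. Its relative *ABCG1*, which exports cholesterol to mature lipoproteins, did not rise with it. *ABCG1* had means of 827 and 863 in iMNs, which was not called, and fell in i3Ns from 759 to 513 (log2 fold change -0.56, SE 0.11).

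*APOE*, the main apolipoprotein of the brain, is in tissue mostly a product of glia. In iMNs its means were 65.2 and 59.7, with a fold change of -0.13 (SE 0.23) that could not be told from 0 at this low level. In i3Ns it fell from 323 to 106, the largest fall of any member (log2 fold change -1.60, SE 0.18, adjusted p = 7.72e-20). The fall of *APOE* stood beside that of the mesenchymal markers and of *MBP* in the same cells, and the part of other cells in it was not tested. *NR1H2*, which encodes LXR beta, the sterol-sensing receptor known to raise *ABCA1* and *ABCG1*, fell in iMNs by 0.25 and had a fold change of -0.08 (SE 0.11) in i3Ns. *SOAT1*, which esterifies cholesterol for storage, was not called in either, with fold changes of -0.18 and -0.07. Of these 5 genes, 1 fell and 1 rose in iMNs (20% each, against 18.7% and 17.1% of all genes). In i3Ns 2 fell (40%, against 25.7%) and 1 rose (20%, against 22.8%).

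Set side by side, 9 members fell in both cell types, where 13.1% of all genes did so. They were *ACAT2*, *PMVK*, *FDPS*, *FDFT1*, *SQLE*, *EBP*, *SC5D*, *SREBF2* and *STARD4*. Another 4 fell in iMNs and rose in i3Ns (13.3%, against 1.43% of all genes), and these were *HMGCS1*, *MVD*, *DHCR7* and *INSIG1*. No member went the other way. With standard errors doubled, only *INSIG1* was still called in both cell types. *DHCR7* was then called in iMNs alone (adjusted p = 0.0703 in i3Ns by the doubled errors), and *HMGCS1* and *MVD* in neither. The shares of 13.1% and 1.43% cover genes at every level of expression and were not worked out for strongly expressed genes alone. The remaining called members were 8 that fell in iMNs only by the threshold, 1 that rose there only, and 2 that fell and 2 that rose in i3Ns only. *INSIG2*, *SCAP* and *SOAT1* were called in neither.

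A call in one cell type alone is no test of a difference, so the fold changes were compared directly, as i3Ns minus iMNs with the SE of both combined. The response differed for 14 of the 30 members (46.7%), and for 34.0% of all 16093 genes. That share covers genes at every level of expression and was not worked out for strongly expressed genes alone, as most members are. It was higher in i3Ns for 11, namely 8 enzymes, *INSIG1*, *TMEM97* and *ABCA1*, and lower for *SC5D*, *ABCG1* and *APOE*. The largest positive differences were those of *DHCR7* (0.84, 95% interval from 0.70 to 0.98) and *INSIG1* (0.83, from 0.69 to 0.97), followed by *ABCA1* (0.70), *MSMO1* (0.60) and *NSDHL* (0.58). *MVD* differed by 0.47, *LSS* by 0.44, *HMGCS1* by 0.41, *TMEM97* by 0.37, *IDI1* by 0.30 and *CYP51A1* by 0.24. On the negative side were *SC5D* (-0.74, from -0.87 to -0.61), *ABCG1* (-0.63) and *APOE* (-1.48, from -2.04 to -0.92). The median difference was 0.15 over the members and 0.25 over the enzymes, beside 0.002 over all genes. With standard errors doubled, *MSMO1*, *SC5D*, *DHCR7* and *INSIG1* still differed and the other 10 did not pass.

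The 16 members that did not pass this test were not shown to respond alike. Their intervals were narrow for *SREBF2*, *SCAP* (difference -0.07, from -0.18 to 0.04) and *FDPS* (0.02, from -0.14 to 0.17). They were wide for *PMVK* (0.26, from -0.05 to 0.57), *HSD17B7* (0.30, from 0.05 to 0.56, adjusted p = 0.0501) and *INSIG2* (-0.27, from -0.57 to 0.03).

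**Figure D3:**
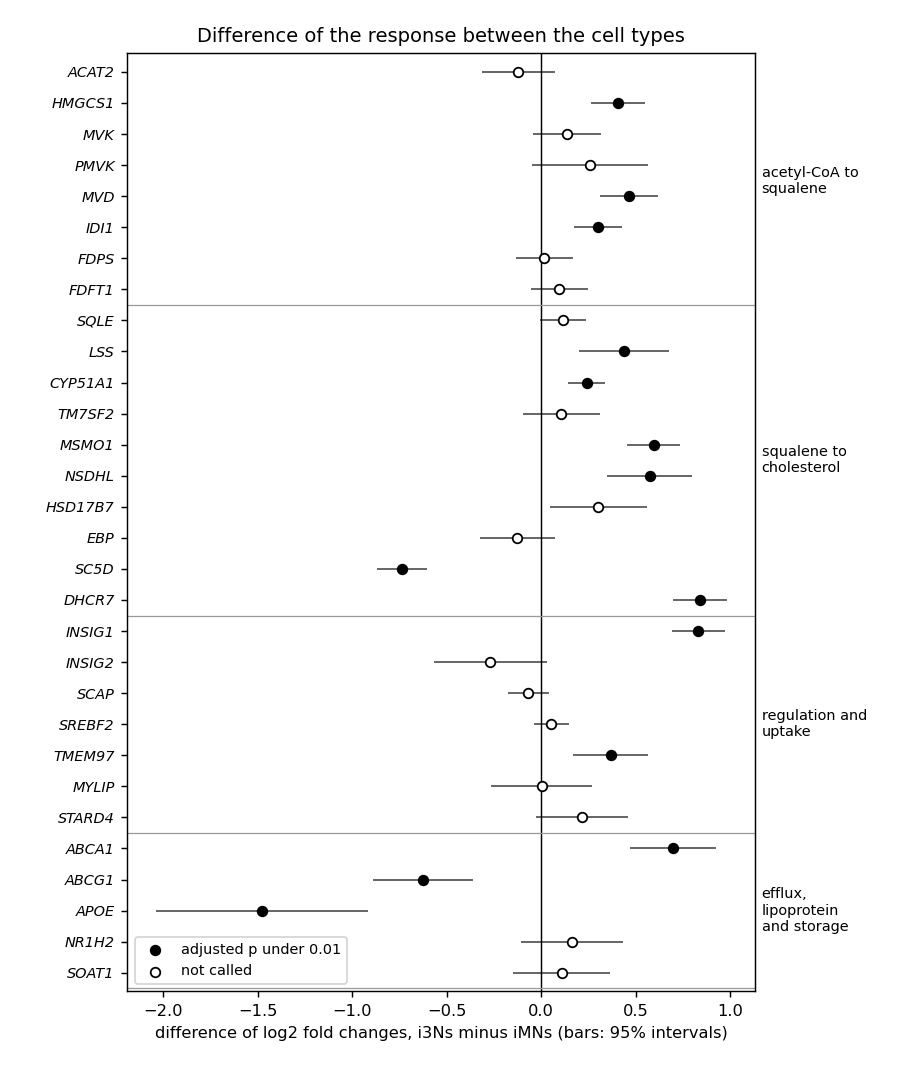
Difference of the log2 fold changes, i3Ns minus iMNs (x axis), for each of the 30 genes in pathway order (y axis), with 95% intervals. Filled points passed an adjusted p of 0.01 over 16093 genes and open points did not, and 11 filled points lie right of 0 and 3 left of it.

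A short match to the shRNA guide strand in a 3′-UTR can lower an mRNA much as a microRNA does, so the 3′-UTRs of the members (GENCODE 44, MANE Select transcripts, sense strand) were searched for the complements of guide bases 2 to 8 and 3 to 9. For the *SMN* shRNA these are CTAATAA and GCTAATA, and for the scrambled shRNA CTAGTAA and ACTAGTA, and the 2 words of a guide overlap in all but 1 base. Matches to the *SMN* guide were present in 6 of the 30 members. This was also the share among all genes with an annotated 3′-UTR and a mean normalized count of 100 or more, 2372 of 11854 in iMNs and 2377 of 11903 in i3Ns. The sites are shown because they fall in the 3 enzymes with the largest falls in iMNs, *ACAT2*, *PMVK* and *SC5D*. Each lies in the last exon, with the match in capitals, the strand of the mRNA printed 5′ to 3′, and the GRCh38 coordinates of the match.
ACAT2, chr6:159778868-159778874, plus strand: tctttttaaaCTAATAAagtactaggt
PMVK, chr1:154924755-154924761, minus strand: agtgtggataCTAATAAacctcttgga
SC5D, chr11:121311747-121311753, plus strand: cactgcctatCTAATAAgattaaataa
STARD4, chr5:111496113-111496119, minus strand: atttattaaaCTAATAAtatgtattag
SOAT1, chr1:179354552-179354558, plus strand: attttattgtCTAATAAatattgactt
HMGCS1, chr5:43289335-43289341, minus strand: caagaaatcaGCTAATAttctattttt

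The 6 members with such a match had medians of -0.58 (iMNs) and -0.40 (i3Ns) on the log2 scale, and 5 and 4 of them fell. *SOAT1* was not called in either cell type and *HMGCS1* rose in i3Ns, so a match did not always go with a fall. Over all genes at the level above, the medians were -0.17 and -0.21 with a match and 0.04 and 0.05 without one. Of all genes with a match, 1107 of 2372 fell in iMNs and 1199 of 2377 in i3Ns. Of those without one, 1726 of 9482 fell in iMNs and 2823 of 9526 in i3Ns. Among the 24 members with no match, 16 fell and 2 rose in iMNs (median -0.26), and 7 fell and 6 rose in i3Ns (median -0.05). Whether the matches lowered these mRNAs was not tested, and with a single *SMN* shRNA the effects of less SMN and of the guide cannot be told apart for a gene with a match.

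Matches to the scrambled guide, which would act in the SCR cells, were present in 5 members (16.7%), and in 12.2% of all genes in either table. These were *HMGCS1*, *MSMO1*, *MYLIP*, *STARD4* and *ABCA1*. The sites of *ABCA1*, the member with the largest rise in both cell types, and of *MSMO1* are shown in the same form.
ABCA1, chr9:104781401-104781407, minus strand: ttattatctaCTAGTAAtaatgtaata
MSMO1, chr4:165341997-165342003, plus strand: gaattcagaaACTAGTAgctaacattg
The *ABCA1* site matches both words of the scrambled guide. The 5 members had median log2 fold changes of -0.10 in iMNs and 0.27 in i3Ns, and all genes with such a match had medians of 0.08 and 0.19. Of the 5, 2 fell and 2 rose in iMNs (*MSMO1* was not called), and 1 fell and 3 rose in i3Ns (*MYLIP* was not called). Of all genes with such a match, 331 of 1444 fell in iMNs and 374 of 1457 in i3Ns, and rises were not counted. Of those without one, 2502 of 10410 fell in iMNs (median -0.001) and 3648 of 10446 in i3Ns (median -0.014). *STARD4* fell in both, and *HMGCS1* fell in iMNs and rose in i3Ns, and each of these also has a match to the *SMN* guide. The part of these matches was not tested.

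**Figure D4:**
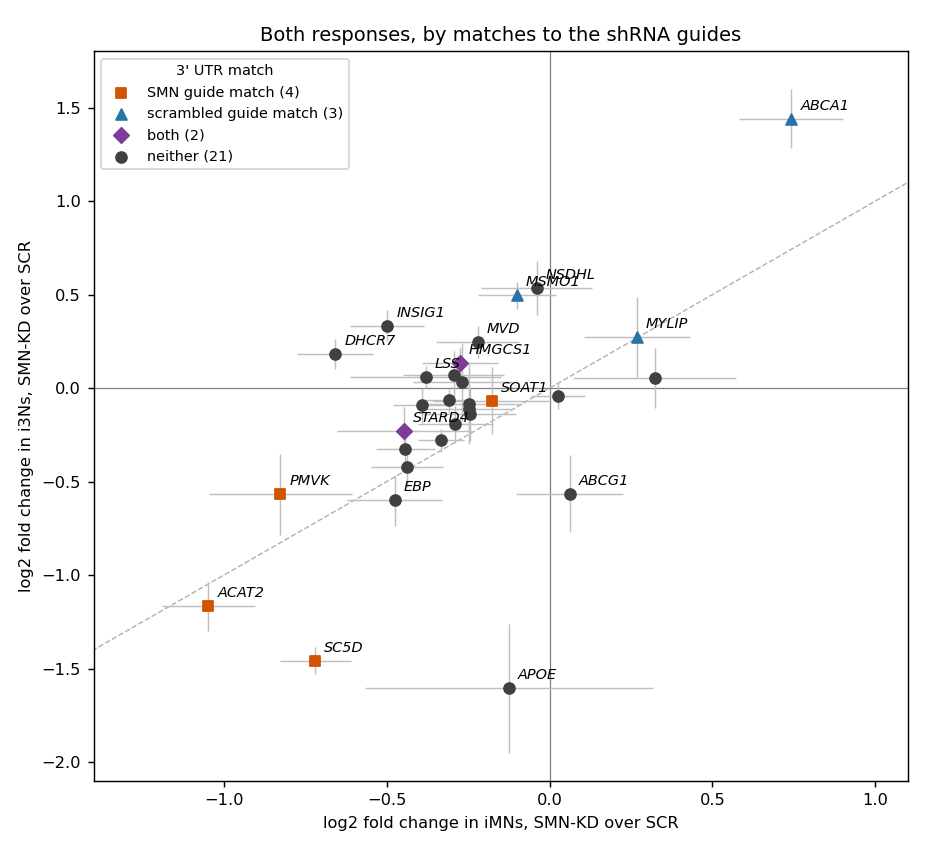
Log2 fold change of each of the 30 genes in iMNs (x axis) and in i3Ns (y axis), with 95% intervals as grey bars and a dashed line of equal response. Symbols mark 3′-UTR matches to the *SMN* guide (4 genes), the scrambled guide (3), both (2) or neither (21). The points farthest left, *ACAT2*, *SC5D* and *PMVK*, carry an *SMN* guide match, while *ABCA1* at upper right carries a scrambled one. *EBP* (-0.48 in iMNs and -0.60 in i3Ns) and *APOE* (-0.13 and -1.60) also lie at lower left and carry neither.

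SREBP2 binds sterol regulatory elements in promoters, often with the factor NF-Y, which binds CCAAT. The promoters of 26 members were found in RefSeq (GRCh38.p14, 250 bases before to 50 after the start) and were searched on both strands. The word TCACNCCAC was present in 1 of 26 (3.85%), against 1.15% of all 27305 promoters. That gene was *SREBF2* itself, which fell in both cell types, and the match starts 133 bases before the start site and is printed here in capitals. Unlike the sites above, its coordinates are those of the whole printed window of 29 bases.
SREBF2, chr22:41832962-41832990, plus strand: tgacgcgccaTCACCCCACgcaccgcttc
CCAAT was present in 19 of 26 (73.1%), against 35.7% of all promoters. The most matches, 5 each, were in *MVK* and *NSDHL*. Matches of the 2 words can share at most 1 base. A match is a description of the letters and not a binding site, and sterol elements vary in sequence, so no match says only that these letters were not in this window.

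Of 34 further genes of sterol sensing, uptake, trafficking and turnover, 31 were listed in iMNs and 32 in i3Ns. In iMNs 5 fell, 6 rose and 20 were not called (median log2 fold change 0.03), close to the background shares. In i3Ns 10 fell and 10 rose (31.2% each, against 25.7% and 22.8% of all genes) and 12 were not called (median -0.01). None was a DEG in iMNs, and the 3 DEGs in i3Ns all fell (9.38%, against 9.53% of all genes, so no more than the background). Among them were *GRAMD1C*, a sterol transfer protein (65.6 to 26.1, log2 fold change -1.33, SE 0.43), and *FAXDC2*, a relative of the sterol oxidases (53.4 to 23.3, -1.19, SE 0.46). Other genes of the pathway were not analysed here.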

How the data were processed

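The 12 libraries were rRNA-depleted total RNA sequenced as paired reads. Per the study's methods, the authors used fastp for adapter trimming, Salmon for transcript quantification and DESeq2 for the comparison within each cell type, and versions, annotation and filters are not given in the sources used here. The deposited tables hold a signal column, the mean normalized count over 6 libraries, which here means counts divided by size factors. The deposited log2 fold change comes with an error on the log2 scale, and the deposited p-value with one adjusted by Benjamini-Hochberg over the table. These columns are the authors' own comparison and were used because the tables hold no values per library, so the planned count test could not be run and the depth per library is unknown. The fold changes appear shrunken: for members, the fold change over its standard error was 0.657 to 0.993 of the z of the deposited p-value in iMNs, lowest for *APOE*, and 0.977 to 1.00 in i3Ns.

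Group means were derived from the mean and the fold change, as both groups have 3 libraries. The difference between cell types was a Wald z of the 2 fold changes, adjusted over 16093 genes. Its intervals are 95% normal intervals. *FDFT1* was read by the identifier that GENCODE 44 holds. Python 3.11.15, numpy 2.4.6, pandas 2.3.3, scipy 1.17.1 and matplotlib 3.10.9 were used. The members and lists were chosen with earlier results of these data known, and every member is named. Of the further sterol genes that the naming rule picked, 1 is not reported here. The level of 1000 and the list of members at it were added after seeing the data. Alternatives changed the p and fold change thresholds, the filter at 100, the standard errors, the centring, the source of the p-value and the identifiers of a symbol.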

Additional observations from a re-analysis of the deposited data

Results flagged for a closer look

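For 14 members the response to *SMN*-KD differed between the cell types by the Wald test of the difference itself, given here as the log2 fold change in i3Ns minus that in iMNs. Among the early enzymes these were *HMGCS1* (0.41), *MVD* (0.47) and *IDI1* (0.30). Among the later enzymes they were *LSS* (0.44), *CYP51A1* (0.24), *MSMO1* (0.60), *NSDHL* (0.58), *SC5D* (-0.74) and *DHCR7* (0.84). Outside the enzymes they were *INSIG1* (0.83), *TMEM97* (0.37), *ABCA1* (0.70), *ABCG1* (-0.63) and *APOE* (-1.48). The cell types also differ in line and differentiation method, and the cause of these differences was not tested.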

How the results depend on the processing

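No paired analysis was possible because the tables hold no values per library, and for the same reason no replicate could be left out. At an adjusted p under 0.05, with the filter at a mean normalized count of 100, after centring, and with p from the fold change over its standard error, the counts of members called in each direction stayed within 1.5 times those reported, as did the count that differed between cell types where these were run. With standard errors doubled, 10 members fell and 1 rose in iMNs, 7 fell and 4 rose in i3Ns, and 4 differed between the cell types. With the fold change threshold of a DEG added, 1 fell and 0 rose in iMNs, and 3 fell and 1 rose in i3Ns, since that threshold is wider than most of the changes. Centring turned the direction of none of the 60 fold changes of the members, and neither did summing the identifiers of *FDFT1* for its 2. Precision is lowest for *APOE* in iMNs.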

Other observations

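Some of the further sterol genes were called in the same direction in both cell types. Shared calls were common, as 13.1% of all 16093 genes fell in both and 11.0% rose in both. *SREBF1*, which encodes the sterol and fatty acid regulator SREBP1, fell in both, with log2 fold changes of -0.48 (SE 0.10) in iMNs and -0.89 (SE 0.098) in i3Ns, and the fall was larger in i3Ns (difference -0.42, adjusted p = 0.00887). *CYP46A1*, the neuronal enzyme that turns cholesterol into an oxysterol that leaves the brain, rose from 1247 to 1605 in iMNs and from 484 to 887 in i3Ns, and the rise was larger in i3Ns (difference 0.51, adjusted p = 0.00016). *SCARB1*, a lipoprotein receptor, rose by 0.54 (SE 0.10) and 0.51 (SE 0.11) on the log2 scale. *NR1H3*, which encodes LXR alpha, was called only in i3Ns, where it rose from 179 to 304. Its means in iMNs were 285 and 288, and the Wald test of the difference between the cell types did not pass (0.75, adjusted p = 0.0107). These genes were named after their values were seen and do not stand for the whole list.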
